A study of Mus musculus with 12 samples.

Results

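The comparison described here set 3 App NL-F/NL-F knock-in mice fed a high-fat diet (HFD) against 3 wild-type (WT) mice on the same feed, in hippocampal RNA. These are 6 of the 12 arrays of the series, chosen by the genotype and diet in their labels. The other 6 came from App NL-F/NL-F and WT mice on a regular diet (RD), 3 of each, and served as a second measurement of the genotype difference. All mice were 18-month-old males on a C57BL/6J background. The HFD had been given for 12 months from 6 months of age, and both HFD groups are labelled diabetic. They shared the diet and, in the paper, impaired glucose tolerance, and differed in genotype. The paper proposes that insulin resistance in the hippocampus was stronger in the App NL-F/NL-F HFD mice. Both App alleles of the knock-in mice carry a humanized amyloid-β sequence with the Swedish and Beyreuther/Iberian mutations under the gene's own promoter, and no transgene is present. Both genotypes descended from matings of heterozygotes and were then kept as separate inbred lines, so that genotype and line cannot be told apart. One saline-perfused hippocampus per mouse gave 1 gene expression array (Affymetrix Mouse Gene 2.0 ST), with no pooling of animals.

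Amyloid-β is cut from the App protein, and the mutations of this allele favour its longer, more aggregation-prone form, which collects in extracellular plaques as the mice age. Microglia, the resident macrophages of the brain, gather at such plaques through the receptor Trem2, switch on lysosomal, antigen-presenting and lipid-handling genes, and release complement that can tag synapses for removal. Astrocytes around plaques enlarge and make more of the filament protein Gfap.

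Each array gave a log2 expression value for 41345 transcript clusters, sets of probes that stand for 1 transcript or a few. Of these, 23521 carry a single gene symbol and represent 22180 genes, a gene with several clusters being read from the brightest. A gene was called bright where its mean over the 12 arrays was at least 6.64 on the log2 scale, which 7110 genes reached. Rgs16 (6.65) lay just inside this limit and Trem2 (6.56) just outside it. Medians of the 6 HFD arrays lay between 4.80 and 4.83, and pairs of these arrays correlated at r = 0.984 to 0.988 over all clusters.

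The tissue carried hippocampal markers, with 14 of 16 measured genes of CA pyramidal cells and 8 of 13 of dentate granule cells bright. It also carried uneven amounts of neighbouring tissue. Ttr, the main secretory product of the choroid plexus, had 13.15, 10.26 and 8.67 in App NL-F/NL-F HFD mice, against 9.13, 13.12 and 13.28 in WT HFD mice. The mean level of the 6 bright choroid plexus genes followed it, at 8.74, 7.52 and 7.38 in App NL-F/NL-F HFD mice 1 to 3 and 7.51, 8.74 and 8.92 in WT HFD mice 1 to 3. Choroid plexus RNA was thus high in 1 App NL-F/NL-F HFD mouse and 2 WT HFD mice. App NL-F/NL-F HFD mouse 1 also had the highest level of the thalamic genes Prkcd (7.96, 6.80 and 7.11 in the 3 App NL-F/NL-F HFD mice, against 7.00, 7.32 and 6.79 in WT HFD mice) and Slc17a6, the vesicular glutamate transporter of subcortical neurons (8.14, 6.96 and 7.65 against 7.08, 7.40 and 7.12). In such whole-tissue samples, more cells of a type and more RNA per cell cannot be told apart.

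No transcript cluster differed between App NL-F/NL-F HFD and WT HFD mice at an adjusted p under 0.05 (limma with Benjamini-Hochberg adjustment over 41345 clusters, 0% called). The smallest adjusted p was 0.0768, which Cst7 reached, and the smallest among bright genes was 0.386, for Tma7. At an unadjusted p under 0.05, 1004 clusters were higher (2.43%) and 1193 lower (2.89%) in App NL-F/NL-F HFD mice. Among bright genes, 165 were higher (2.32%) and 71 lower (0.999%) at that level. The lowest App NL-F/NL-F value lay above the highest WT value in 627 bright genes (8.82%), and the highest App NL-F/NL-F value lay below the lowest WT value in 418 (5.88%). Quantile normalization gave 466 higher and 599 lower genes, and centring on bright clusters 505 and 561, so that the balance of the directions depended on the scaling. A difference above 0 was found in 55.5% of bright genes. Over all 22180 genes, bright or not, 2.29% were higher and 2.13% lower at an unadjusted p under 0.05. The genes named below are therefore described by their values in each mouse, by whether the groups overlap and by the RD-fed mice, and a higher or lower value in them is a description of these 6 mice. Differences are log2, App NL-F/NL-F HFD minus WT HFD unless stated, with the SE or the 95% confidence interval of the limma fit. A comparison of 3 mice with 3 cannot give an exact permutation p below 0.1. Differences were small. Over the bright genes their median was 0.01 on the log2 scale, the 5th percentile -0.13 and the 95th 0.16, and the median standard error (SE) was 0.08.

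App itself, which encodes the amyloid precursor protein, had 11.61, 11.60 and 11.59 in App NL-F/NL-F HFD mice, against 11.70, 11.63 and 11.66 in WT HFD mice. The groups did not overlap, but the difference was only -0.06 ± 0.06 (95% confidence interval -0.20 to 0.08), and on RD it was -0.05. The probes of this cluster were not checked against the mutated bases. Of the 8 bright genes for App processing, none passed an unadjusted p of 0.05, and 2 were lower without overlap, App and Aph1a, a subunit of γ-secretase (7.89, 7.93 and 7.88 in App NL-F/NL-F HFD mice, against 8.02, 8.06 and 8.05 in WT HFD mice). The β-secretase Bace1 differed by 0.07 ± 0.07. Among 8 bright genes for amyloid-β clearance only Clu, a secreted chaperone that binds the peptide, separated the groups (10.33, 10.39 and 10.42 in App NL-F/NL-F HFD mice, against 10.30, 10.26 and 10.32 in WT HFD mice), by 0.09. Of the 11 bright genes beside App on the same chromosome, 3 were lower without overlap, Ncam2 by -0.17, Usp16 by -0.13 and Tiam1 by -0.15, and none was higher. The shares among all bright genes were 5.88% lower and 8.82% higher. Of the 11, 7 had a difference above 0, and the list median was 0.02.

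Of the 22 measured genes of plaque-associated microglia, bright or not, 10 were higher and none lower without overlap, beside 6.15% and 5.66% of all 22180 genes. Cst7, an inhibitor of lysosomal cathepsins, had 5.94, 6.27 and 6.47 in App NL-F/NL-F HFD mice, against 5.03, 5.02 and 5.10 in WT HFD mice. Its difference of 1.18 ± 0.13 (log2, SE) corresponds to a 2.26-fold level, with an adjusted p of 0.0768. Cst7 passed only where App NL-F/NL-F HFD mouse 1 was left out (1.32, adjusted p 0.0331) or the spread was modelled with an intensity trend and robust estimation together (adjusted p 0.038). The pattern recognition receptor Clec7a had 4.72, 4.97 and 5.14 in App NL-F/NL-F HFD mice, against 4.23, 3.98 and 4.30 in WT HFD mice, and the inhibitory receptor Lilrb4a 6.29, 5.78 and 6.20 in App NL-F/NL-F HFD mice, against 4.86, 5.07 and 5.28 in WT HFD mice. No mouse of either genotype crossed into the other group for these 3 genes, and the folds were 1.71 for Clec7a and 2.03 for Lilrb4a. Ccl3, a chemokine, behaved alike at 5.80, 5.83 and 5.83 in App NL-F/NL-F HFD mice, against 5.33, 4.94 and 4.64 in WT HFD mice, with the 3 App NL-F/NL-F HFD mice nearly equal. Trem2, whose coding variants alter Alzheimer's disease risk in humans, had 6.65, 6.86 and 6.91 in App NL-F/NL-F HFD mice, against 6.36, 6.44 and 6.34 in WT HFD mice, a difference of 0.42 ± 0.12 (95% confidence interval 0.16 to 0.69). Igf1, a growth factor, differed by 0.37 ± 0.10. The genes named here are dim, that is below the brightness limit, where probe background makes up more of the signal.

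Of the 22 measured genes of this list, 7 were higher and none lower at an unadjusted p under 0.05, beside 2.29% and 2.13% of all 22180 genes. All 7 were dim (Cst7, Clec7a, Lilrb4a, Igf1, Trem2, Itgax and Gpnmb, the last 2 named after their values were seen). The 11 bright members had a median difference of 0.06, and 2 of them separated the groups, Ctsb (11.24, 11.18 and 11.22 in App NL-F/NL-F HFD mice, against 11.09, 11.10 and 11.02 in WT HFD mice) and Cd9. These 2 make up 18.2% of the bright members, beside 8.82% of all bright genes higher without overlap. Apoe, a lipid carrier of astrocytes and activated microglia, had 7.19, 7.29 and 7.36 in App NL-F/NL-F HFD mice, against 7.29, 7.23 and 7.15 in WT HFD mice, with overlap.

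Lysosomal and phagocytic genes were higher in part. Of 12 bright members 6 were higher without overlap and none lower, against 8.82% and 5.88% of bright genes, with a median difference of 0.13 (0.09 to 0.15 with each mouse left out in turn). At an unadjusted p under 0.05, 5 were higher and none lower, against 2.32% and 0.999% of bright genes. Cd68, the lysosomal membrane protein used to mark phagocytic microglia, had 7.71, 7.82 and 7.87 in App NL-F/NL-F HFD mice, against 7.45, 7.55 and 7.45 in WT HFD mice, a difference of 0.32 ± 0.09 (95% confidence interval 0.12 to 0.52). Ctss, a cathepsin made by microglia, had 9.35, 9.63 and 9.51 in App NL-F/NL-F HFD mice, against 9.27, 9.08 and 9.14 in WT HFD mice, and Mertk, a receptor for the uptake of dying cells, had 7.84, 8.05 and 7.97 in App NL-F/NL-F HFD mice, against 7.51, 7.67 and 7.78 in WT HFD mice. Fcer1g, the signalling chain of Fc receptors, had 8.07, 8.09 and 8.08 in App NL-F/NL-F HFD mice, against 7.93, 7.84 and 7.90 in WT HFD mice. Each group of Fcer1g values spread less than the 0.19 between their means. Among general lysosomal proteins Lamp1 differed by 0.04 ± 0.07. Fcgr3, an activating Fc receptor below the brightness limit, had 5.61, 5.89 and 5.88 in App NL-F/NL-F HFD mice, against 5.51, 5.58 and 5.53 in WT HFD mice, a difference of 0.25, where on RD the difference was -0.06, but the contrast of the 2 differences had an adjusted p of 0.979.

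All 3 bright complement genes were higher without overlap, beside 8.82% of bright genes. C1qa had 7.56, 7.83 and 7.72 in App NL-F/NL-F HFD mice, against 7.32, 7.49 and 7.53 in WT HFD mice, C1qb had 8.98, 9.10 and 9.06 in App NL-F/NL-F HFD mice, against 8.87, 8.87 and 8.83 in WT HFD mice, and C4b had 7.67, 8.20 and 7.57 in App NL-F/NL-F HFD mice, against 7.55, 7.46 and 7.18 in WT HFD mice. C1qa and C1qb encode chains of the recognition molecule that starts the classical pathway, and C4b its next component. The differences were 0.26, 0.19 and 0.41, and App NL-F/NL-F HFD mouse 2 had the highest value of each. Without it C4b differed by 0.22. C3ar1, the receptor for a complement fragment, was dim and had 5.13, 5.11 and 5.07 in App NL-F/NL-F HFD mice, against 4.93, 4.75 and 4.89 in WT HFD mice. B2m, the light chain of class I histocompatibility molecules, had 10.73, 11.15 and 10.94 in App NL-F/NL-F HFD mice, against 10.67, 10.65 and 10.54 in WT HFD mice, again highest in App NL-F/NL-F HFD mouse 2.

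All 7 bright genes of resting, or homeostatic, microglia had a difference above 0, as did 55.5% of bright genes, with a median of 0.09, and 2 separated the groups, Fcrls (7.11, 7.23 and 7.25 in App NL-F/NL-F HFD mice, against 6.88, 6.75 and 6.98 in WT HFD mice) and Selplg, the ligand of P-selectin (8.43, 8.56 and 8.61 in App NL-F/NL-F HFD mice, against 8.36, 8.19 and 8.25 in WT HFD mice). These 2 make up 28.6% of the bright members, beside 8.82% of all bright genes higher without overlap. A dimmer cluster of Selplg had a difference of 0.02 on HFD and -0.10 on RD. The receptor P2ry12, which senses nucleotides, had 7.25, 7.48 and 7.35 in App NL-F/NL-F HFD mice, against 7.44, 7.28 and 7.03 in WT HFD mice. The fractalkine receptor Cx3cr1 had 7.67, 7.87 and 7.79 in App NL-F/NL-F HFD mice, against 7.69, 7.65 and 7.71 in WT HFD mice. Both overlapped. Ly86, which pairs with the Toll-like receptor homologue Cd180 on immune cells, was among the 15 bright genes with the largest positive differences (7.69, 7.94 and 7.98 in App NL-F/NL-F HFD mice, against 7.48, 7.57 and 7.29 in WT HFD mice). Cytokines were dim. Il1b, a central inflammatory cytokine, had 3.90, 3.71 and 3.47 in App NL-F/NL-F HFD mice, against 3.65, 3.22 and 3.56 in WT HFD mice, all below the array medians. Of 18 measured cytokine and chemokine genes, Ccl3 alone passed an unadjusted p of 0.05, beside 2.29% of all 22180 genes higher and 2.13% lower. The interferon list held 2 bright genes, both with a difference below 0, and neither separated the groups. Of its 16 measured genes 10 had a difference above 0, with a median of 0.04. Only the dim Rtp4 and Isg15 passed an unadjusted p of 0.05, with differences of 0.22 and 0.32.

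**Figure D1:**
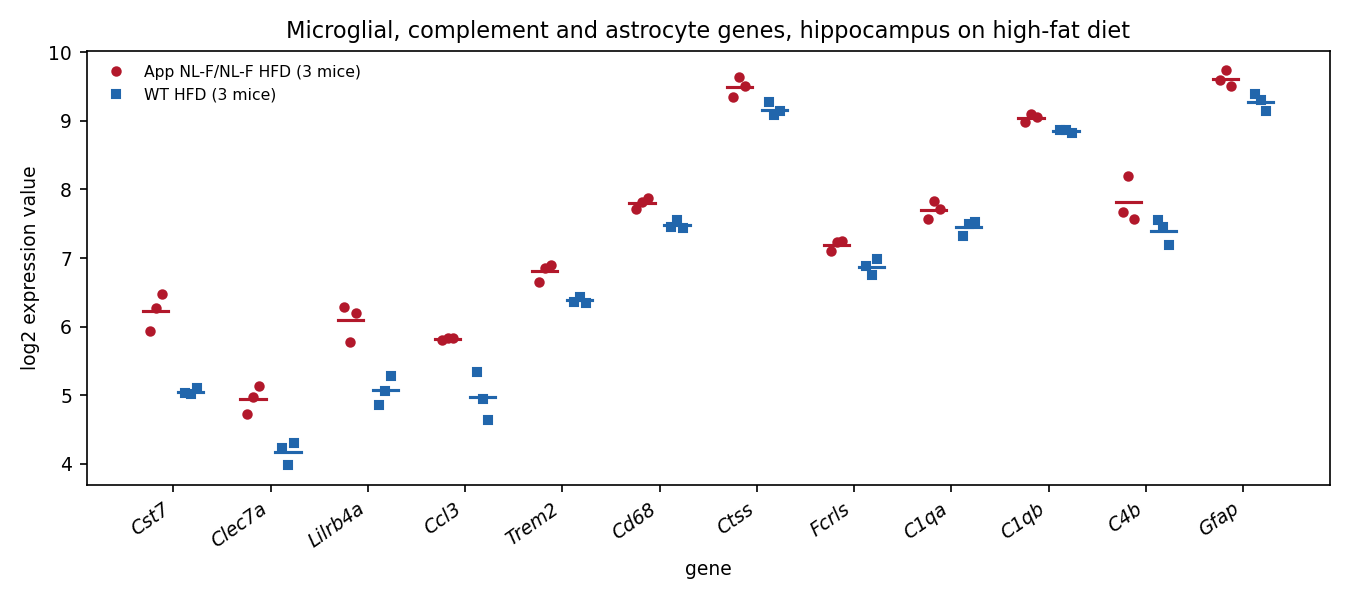
Log2 expression values (vertical axis) of 12 microglial, complement and astrocyte genes in each of the 3 App NL-F/NL-F HFD mice (red circles) and each of the 3 WT HFD mice (blue squares), with the group mean as a bar. In every gene shown the 3 App NL-F/NL-F values lie above the 3 WT values, and the gap is widest in the dim genes Cst7 and Lilrb4a, with differences of 1.18 and 1.02.

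Astrocytes were represented by Gfap, which had 9.59, 9.74 and 9.51 in App NL-F/NL-F HFD mice, against 9.39, 9.30 and 9.15 in WT HFD mice, a difference of 0.33 ± 0.09 (95% confidence interval 0.13 to 0.53). Serpina3n, a secreted protease inhibitor of reactive astrocytes, had 9.86, 10.14 and 9.66 in App NL-F/NL-F HFD mice, against 9.71, 9.52 and 9.64 in WT HFD mice, and App NL-F/NL-F HFD mouse 3 lay inside the WT range. Of the 8 bright reactive astrocyte genes 2 separated the groups, Gfap and C4b (25%, beside 8.82% of bright genes higher without overlap), and the median was 0.12. Cd44, a hyaluronan receptor, was dim and had 4.81, 4.56 and 4.94 in App NL-F/NL-F HFD mice, against 4.49, 4.49 and 4.41 in WT HFD mice. Lcn2, an iron-binding acute-phase protein, varied widely within WT HFD mice (6.58, 6.74 and 6.40 in App NL-F/NL-F HFD mice, against 5.39, 5.70 and 6.90 in WT HFD mice). Transporters and enzymes of all astrocytes differed little: of 14 bright genes only Glul, glutamine synthetase, separated the groups (11.44, 11.53 and 11.49 in App NL-F/NL-F HFD mice, against 11.34, 11.39 and 11.38 in WT HFD mice), and the median was 0.04. That 1 gene is 7.14% of the list, beside 8.82% of bright genes. Fam107a, an actin-binding protein of astrocytes and radial glia that responds to glucocorticoids, had 10.63, 10.60 and 10.35 in App NL-F/NL-F HFD mice, against 9.87, 10.04 and 10.28 in WT HFD mice, the largest positive difference of the bright genes with an unadjusted p under 0.05 and no overlap. It came to 0.46 ± 0.13 (95% confidence interval 0.17 to 0.76). A second bright cluster of Fam107a overlapped between the groups, with a difference of 0.20 on HFD and 0.01 on RD. App NL-F/NL-F HFD mouse 3 lay close to WT HFD mouse 3, the highest of its group. Htra1, a secreted serine protease, and Daam2, a regulator of Wnt signalling and actin, are other genes of glia among the top 15, with differences of 0.36 and 0.38.

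Chaperones were the list in which the most bright members separated the genotypes by number, though not by share. They fold proteins in the cytosol or in the endoplasmic reticulum (ER), where an excess of unfolded protein frees the ER chaperone Hspa5 (BiP) from its sensors and so switches on the genes of the unfolded protein response. Of 18 bright members of the list, which also holds regulators of these pathways, 11 were higher without overlap (61.1%, beside 8.82% of bright genes) and none was lower. The median difference was 0.15 (0.10 to 0.20 with each mouse left out in turn), and 6 members had an unadjusted p under 0.05, each of them higher, as were 2.32% of bright genes at that level. The mean level of the bright list was 8.57, 8.51 and 8.66 in App NL-F/NL-F HFD mice and 8.45, 8.39 and 8.42 in WT HFD mice. On RD it was 8.53, 8.65 and 8.73 in App NL-F/NL-F mice and 8.61, 8.61 and 8.47 in WT mice. WT HFD mice were thus the lowest group, and App NL-F/NL-F HFD mice lay within the range of the RD mice. Whether the difference came from a rise in one genotype or a fall in the other was not tested. Hspa5 had 8.63, 8.48 and 8.86 in App NL-F/NL-F HFD mice, against 8.41, 8.26 and 8.45 in WT HFD mice. The ER lectin chaperone Calr had 10.81, 10.75 and 10.78 in App NL-F/NL-F HFD mice, against 10.51, 10.46 and 10.54 in WT HFD mice, with little spread in either group, and a difference of 0.28 ± 0.07 (95% confidence interval 0.11 to 0.44, adjusted p 0.854). Hsp90b1, the ER member of the Hsp90 family, had 10.74, 10.65 and 10.73 in App NL-F/NL-F HFD mice, against 10.39, 10.55 and 10.49 in WT HFD mice. The disulfide isomerase Pdia6 had 9.06, 8.91 and 9.14 in App NL-F/NL-F HFD mice, against 8.78, 8.57 and 8.83 in WT HFD mice, and Sdf2l1, a partner of Hspa5, had 7.03, 6.98 and 7.16 in App NL-F/NL-F HFD mice, against 6.63, 6.54 and 6.78 in WT HFD mice. App NL-F/NL-F HFD mouse 2 had the lowest value of its group in each of these 5 genes, and still lay above all WT HFD mice. Chordc1, a cochaperone of cytosolic Hsp90, had 8.61, 8.45 and 8.68 in App NL-F/NL-F HFD mice, against 8.38, 8.24 and 8.21 in WT HFD mice. Hspa8, the constitutive cytosolic Hsp70, had 12.07, 12.10 and 12.06 in App NL-F/NL-F HFD mice, against 11.98, 11.96 and 11.99 in WT HFD mice, a difference of only 0.10. Xbp1, a transcription factor of the pathway that is active once spliced, had 8.31, 8.21 and 8.48 in App NL-F/NL-F HFD mice, against 8.18, 8.18 and 8.15 in WT HFD mice. Hspa1a, an inducible cytosolic Hsp70, had 7.37, 7.32 and 7.85 in App NL-F/NL-F HFD mice, against 7.35, 7.40 and 7.18 in WT HFD mice, with overlap. Ddit3, a factor of the branch that ends in growth arrest and cell death, differed by 0.06 ± 0.09. Lilrb4a, C4b and Hspa1a have near-identical relatives in the genome, and whether their probes also measure these was not tested.

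The ER stress response element, to which Xbp1 and Atf6 bind together with NF-Y, is a known feature of promoters of this group, and the letters of 4 promoters are shown because these genes were higher together. It was searched as CCAAT, any 9 bases and CCACG, on both strands, in RefSeq windows of 250 bases before to 50 after each gene's start (mouse build GRCm38.p6). The element stood in 39 of 32851 windows (0.119%). Of 17 genes of the chaperone list with a window 4 held it, Hspa5, Calr, Hsp90b1 and Pdia6. All 4 were higher without overlap, as were 11 of the 18 bright members of the list. Of 11 bright genes with the element, 8 had a difference above 0, as did 55.5% of all bright genes. The median of the 11 was 0.16 on HFD and 0.08 on RD. Whether the element has a part in these differences was not tested. Canx (0.08), Creld2 (0.23) and Dnajc3 (0.16) were among the 7 that overlapped, with Alg12 (-0.09) and Syvn1 (-0.06) below 0. A match describes letters only, not binding. The 250 bases before the start follow, 5′ to 3′ on the gene's strand, with the element in capitals (Hspa5 at chr2:34771840-34772089 on the plus strand, Calr at chr8:84846932-84847181 on the minus strand, Hsp90b1 at chr10:86705445-86705694 on the minus strand and Pdia6 at chr12:17266339-17266588 on the plus strand):
Hspa5: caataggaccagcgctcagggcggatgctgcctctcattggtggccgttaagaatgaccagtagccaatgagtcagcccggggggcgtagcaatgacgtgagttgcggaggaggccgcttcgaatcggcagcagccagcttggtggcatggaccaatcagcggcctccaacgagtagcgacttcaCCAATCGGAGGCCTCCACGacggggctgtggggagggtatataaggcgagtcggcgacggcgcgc
Calr: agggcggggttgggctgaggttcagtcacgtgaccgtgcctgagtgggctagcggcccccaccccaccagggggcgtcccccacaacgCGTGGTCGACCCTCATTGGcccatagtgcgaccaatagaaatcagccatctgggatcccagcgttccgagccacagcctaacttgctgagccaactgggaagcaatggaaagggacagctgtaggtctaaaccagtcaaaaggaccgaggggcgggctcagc
Hsp90b1: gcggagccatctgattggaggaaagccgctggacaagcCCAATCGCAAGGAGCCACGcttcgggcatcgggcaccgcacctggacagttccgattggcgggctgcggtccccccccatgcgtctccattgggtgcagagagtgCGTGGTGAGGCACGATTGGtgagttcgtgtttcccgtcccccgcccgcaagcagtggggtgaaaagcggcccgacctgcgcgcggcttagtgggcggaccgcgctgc
Pdia6: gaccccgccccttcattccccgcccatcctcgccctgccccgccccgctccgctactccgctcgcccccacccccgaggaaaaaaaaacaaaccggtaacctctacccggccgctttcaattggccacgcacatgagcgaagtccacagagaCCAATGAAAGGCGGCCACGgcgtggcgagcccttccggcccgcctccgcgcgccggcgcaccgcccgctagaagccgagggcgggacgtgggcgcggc
In Hspa5 the element began 65 bases before the start and in Pdia6 98 bases before it, both on the gene's strand. In Calr it lay on the opposite strand, from 162 bases before the start. Hsp90b1 held 2 copies, 1 in each direction, beginning 212 and 107 bases before the start.

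**Figure D2:**
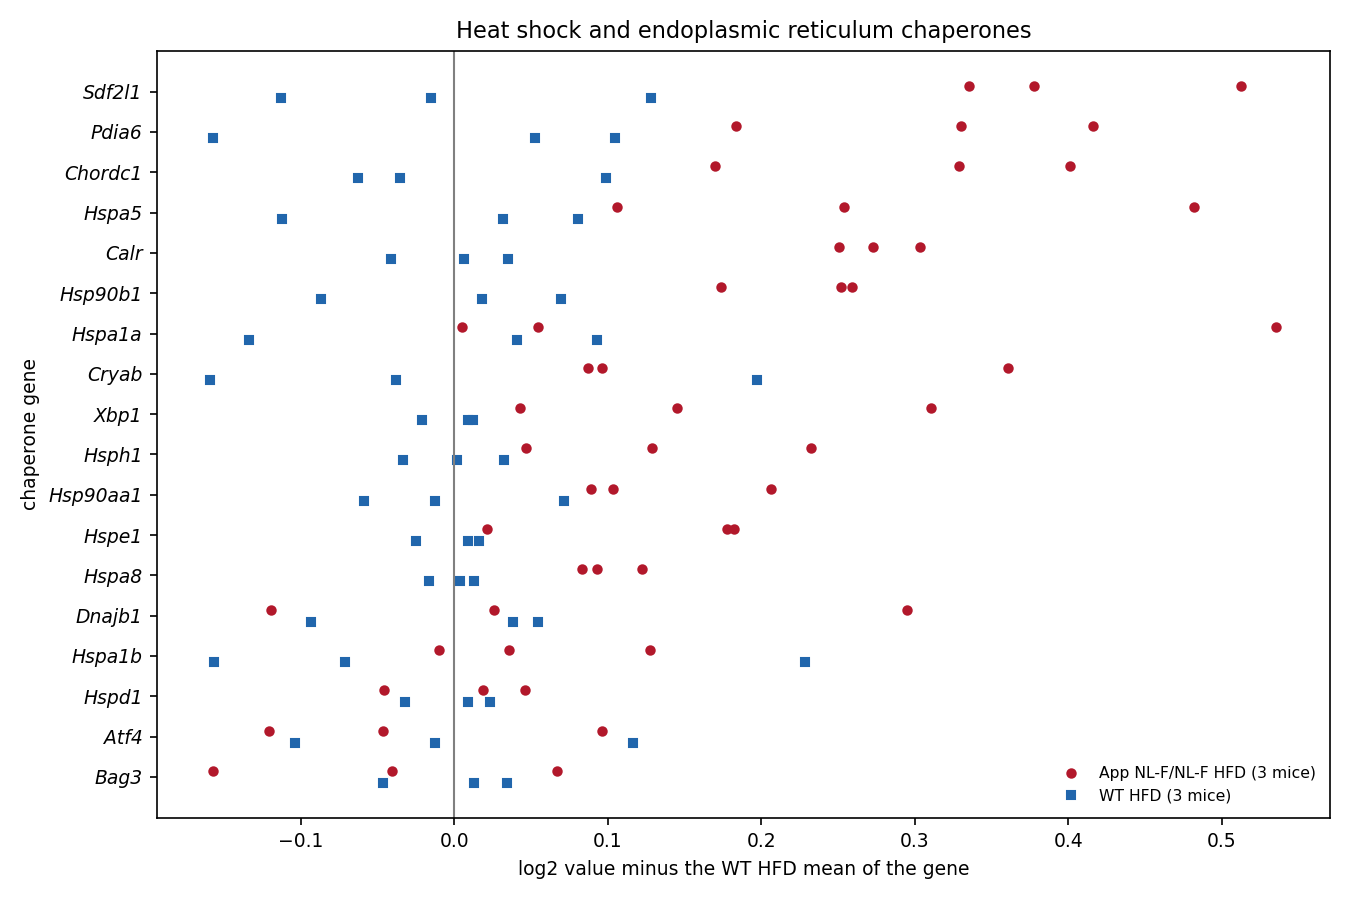
Log2 value of each mouse minus the WT HFD mean of the gene (horizontal axis) for the 18 bright members of the chaperone list (rows, ordered by the difference), App NL-F/NL-F HFD mice as red circles above WT HFD mice as blue squares. The 3 red points lie to the right of the 3 blue points in 11 rows, from Sdf2l1 (0.41) to Hspa8 (0.10), and no row shows the opposite.

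Oligodendrocyte genes were higher in some members. Hapln2, a link protein of the matrix at nodes of Ranvier, had 7.82, 7.92 and 7.61 in App NL-F/NL-F HFD mice, against 7.30, 7.27 and 7.41 in WT HFD mice, a difference of 0.45 ± 0.11 (95% confidence interval 0.21 to 0.70). On RD its difference was -0.02, and the contrast of the 2 had an adjusted p of 0.979. Anln, a scaffold of septins in myelin, had 8.29, 8.41 and 8.19 in App NL-F/NL-F HFD mice, against 8.02, 7.88 and 7.72 in WT HFD mice. Mobp, a myelin structural protein, had 10.98, 10.93 and 10.88 in App NL-F/NL-F HFD mice, against 10.69, 10.63 and 10.67 in WT HFD mice, and Ermn, a cytoskeletal protein of late myelination, 9.37, 9.22 and 9.25 in App NL-F/NL-F HFD mice, against 9.14, 8.89 and 8.78 in WT HFD mice. Of the 14 bright genes of the myelin list 12 had a difference above 0, beside 55.5% of bright genes, with a median of 0.11. Mobp and Ermn separated the groups, 14.3% of the list, beside 8.82% of bright genes. The lowest difference in the list was -0.25, with overlap. The myelin proteins Mbp (0.06) and Mog (0.12) overlapped. The lineage factor Olig2 had 8.57, 8.46 and 8.45 in App NL-F/NL-F HFD mice, against 8.17, 8.20 and 8.20 in WT HFD mice, and Olig1 had 8.80, 8.80 and 8.76 in App NL-F/NL-F HFD mice, against 8.61, 8.67 and 8.65 in WT HFD mice. The remaining bright gene of the oligodendrocyte precursor list differed by -0.01 and overlapped. The mean level of the bright myelin list, 8.76, 8.66 and 8.68 in App NL-F/NL-F HFD mice and 8.69, 8.63 and 8.48 in WT HFD mice, overlapped, and it was highest in the App NL-F/NL-F HFD mouse with the most thalamic RNA. The part of neighbouring white matter in these values was not tested.

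Some glucocorticoid-responsive genes were higher. Plin4, a coat protein of lipid droplets, had 6.60, 7.08 and 5.96 in App NL-F/NL-F HFD mice, against 5.28, 5.70 and 5.93 in WT HFD mice, Zbtb16, a transcription factor, 9.06, 9.44 and 9.33 in App NL-F/NL-F HFD mice, against 8.92, 8.99 and 9.04 in WT HFD mice, and Sult1a1, a sulfotransferase, 6.88, 7.07 and 6.72 in App NL-F/NL-F HFD mice, against 6.34, 6.31 and 6.71 in WT HFD mice. App NL-F/NL-F HFD mouse 2 was highest in all 3 genes, and in Plin4 and Sult1a1, both dim, App NL-F/NL-F HFD mouse 3 lay next to WT HFD mouse 3. Cdkn1a, a cell cycle inhibitor, had the largest difference among bright members, but with overlap (7.44, 8.36 and 8.03 in App NL-F/NL-F HFD mice, against 6.79, 7.64 and 7.43 in WT HFD mice). Of 11 bright members Zbtb16 was higher and Per1, also a clock gene, lower without overlap, beside 8.82% and 5.88% of bright genes. The 11 had a median of 0.10, with 9 above 0 and 2 below. Of all 17 measured members 4 were higher and 1 lower without overlap, beside 6.15% and 5.66% of all genes.

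Other genes with the largest bright differences came from no single group. Tspan31, a tetraspanin, had 9.38, 9.30 and 9.40 in App NL-F/NL-F HFD mice, against 8.89, 8.99 and 8.97 in WT HFD mice, a difference of 0.41 ± 0.08 (95% confidence interval 0.23 to 0.58). Ptma, an abundant nuclear protein, had 9.62, 9.69 and 9.82 in App NL-F/NL-F HFD mice, against 9.23, 9.40 and 9.41 in WT HFD mice, and its probes may also measure near-identical processed copies of the gene, which was not tested. Gla, the lysosomal galactosidase, had 6.88, 6.94 and 6.87 in App NL-F/NL-F HFD mice, against 6.65, 6.48 and 6.57 in WT HFD mice. Rgs16, a regulator of G protein signalling, had 7.32, 6.57 and 6.82 in App NL-F/NL-F HFD mice, against 6.56, 6.49 and 6.38 in WT HFD mice, where App NL-F/NL-F HFD mouse 1 stood apart from the other 5 mice and mouse 2 lay next to the WT range. Without mouse 1 its difference was 0.22. Sez6l2, a neuronal membrane protein, and Naf1, an assembly factor of small nucleolar ribonucleoproteins, complete the 15, with differences of 0.34 and 0.34.

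Of the genes that were lower, Tma7, a small protein linked to translation in yeast, had 9.02, 9.07 and 9.02 in App NL-F/NL-F HFD mice, against 9.54, 9.49 and 9.37 in WT HFD mice. Its difference of -0.43 ± 0.07 (95% confidence interval -0.58 to -0.28) had the smallest adjusted p of all bright genes, 0.386. A dimmer cluster annotated to Tma7 did not share this, with a difference of 0.12. Klf16, a zinc finger repressor, had 7.26, 7.30 and 7.39 in App NL-F/NL-F HFD mice, against 7.53, 7.73 and 7.74 in WT HFD mice. Penk, the precursor of enkephalin peptides, had 7.73, 7.75 and 7.83 in App NL-F/NL-F HFD mice, against 7.91, 8.15 and 8.41 in WT HFD mice, and the spread among WT HFD mice exceeded that among App NL-F/NL-F HFD mice. Penk also marks striatal tissue, of which the dopamine receptors Drd2 and Drd1 are other markers, with differences of -0.25 and -0.15. Trim27, Kif21b, Zswim6, Zfp945, Bri3, Unc5d, Rbmxl1 and Trappc2l, which serve in ubiquitination, microtubule transport, axon guidance and vesicle tethering among others, had differences between -0.33 (Trim27) and -0.26 (Trappc2l). Each of the 15 lower genes separated the groups by rule, and in Gadd45b, a stress-induced regulator of demethylation, the gap was minimal (6.15, 6.63 and 6.91 in App NL-F/NL-F HFD mice, against 6.93, 7.00 and 6.92 in WT HFD mice), with a difference of -0.18 without App NL-F/NL-F HFD mouse 1.

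Immediate early genes, which neurons transcribe within minutes of activity, were lower in part. Junb had 6.42, 6.51 and 6.76 in App NL-F/NL-F HFD mice, against 6.88, 6.83 and 7.04 in WT HFD mice, and Nr4a3, an orphan nuclear receptor, had 7.79, 7.80 and 8.14 in App NL-F/NL-F HFD mice, against 8.26, 8.30 and 8.15 in WT HFD mice. The dim Egr2 had 5.43, 4.96 and 5.87 in App NL-F/NL-F HFD mice, against 6.02, 6.28 and 6.03 in WT HFD mice, a difference of -0.69 ± 0.20 (95% confidence interval -1.13 to -0.25). App NL-F/NL-F HFD mouse 3 had the highest value of its group in all 3 genes, close to the WT range. Of 10 bright members 2 were lower without overlap, 1 was higher, Jun (8.76, 8.85 and 8.90 in App NL-F/NL-F HFD mice, against 8.66, 8.56 and 8.69 in WT HFD mice), and 8 lay below 0, with a median of -0.13. Among all bright genes 5.88% were lower and 8.82% higher without overlap. Egr1 (7.65, 7.59 and 8.42 in App NL-F/NL-F HFD mice, against 8.00, 8.42 and 8.27 in WT HFD mice) and Arc (8.10, 7.86 and 8.39 in App NL-F/NL-F HFD mice, against 8.16, 8.42 and 8.18 in WT HFD mice) overlapped. On RD the median was 0.04 and the difference of Egr2 was -0.10.

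Of 13 bright genes of the circadian clock 3 were lower and 1 higher without overlap, beside 5.88% and 8.82% of bright genes. The median was -0.03 (0.00 without WT HFD mouse 3). Dbp, a transcription factor driven directly by the clock, had 8.51, 8.41 and 8.40 in App NL-F/NL-F HFD mice, against 8.88, 8.74 and 8.71 in WT HFD mice, a difference of -0.34 ± 0.08 (95% confidence interval -0.52 to -0.15). Per1, a repressor of the clock, had 8.94, 8.70 and 8.91 in App NL-F/NL-F HFD mice, against 9.11, 9.07 and 9.11 in WT HFD mice, and Ciart, another repressor, was dim and had 6.30, 6.17 and 6.11 in App NL-F/NL-F HFD mice, against 6.42, 6.53 and 6.35 in WT HFD mice. The nuclear receptor Nr1d1 had 9.37, 9.01 and 8.95 in App NL-F/NL-F HFD mice, against 9.43, 9.35 and 9.22 in WT HFD mice, with App NL-F/NL-F HFD mouse 1 inside the WT range. Bhlhe41, also a repressor, had 7.38, 7.42 and 7.43 in App NL-F/NL-F HFD mice, against 7.53, 7.59 and 7.50 in WT HFD mice, while Arntl, an activator, had 8.31, 8.32 and 8.43 in App NL-F/NL-F HFD mice, against 8.22, 8.22 and 8.21 in WT HFD mice, the opposite direction. The hour of death of each mouse was not known here, so that its part in these values was not tested.

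Cholesterol synthesis genes lay slightly below 0. Of 11 bright members 10 were below 0, with a median of -0.06, where 55.5% of all bright genes lay above 0. Only Insig1, which holds back the sterol sensor in the ER, separated the groups (8.61, 8.51 and 8.63 in App NL-F/NL-F HFD mice, against 8.85, 8.78 and 8.68 in WT HFD mice), beside 5.88% of bright genes lower without overlap. The dim lanosterol synthase Lss had 6.15, 6.15 and 6.40 in App NL-F/NL-F HFD mice, against 6.69, 6.42 and 6.52 in WT HFD mice, and squalene epoxidase Sqle had 7.61, 7.64 and 7.91 in App NL-F/NL-F HFD mice, against 7.97, 7.84 and 7.99 in WT HFD mice, where App NL-F/NL-F HFD mouse 3 overlapped. Cyp46a1, the neuronal enzyme that removes cholesterol from the brain, had 9.31, 9.21 and 9.41 in App NL-F/NL-F HFD mice, against 9.45, 9.44 and 9.56 in WT HFD mice. Fatty acid synthesis held 1 of 10 bright genes that was lower without overlap, and fatty acid oxidation none of 10 in either direction. Among all bright genes 5.88% were lower and 8.82% higher without overlap. In insulin signalling 2 of 16 bright genes separated the groups, both higher, Adipor2, an adiponectin receptor (7.93, 8.13 and 7.99 in App NL-F/NL-F HFD mice, against 7.55, 7.86 and 7.75 in WT HFD mice), and Pik3r1, a regulatory subunit of phosphoinositide 3-kinase, by 0.11. That is 12.5% of the list, beside 8.82% of bright genes, and the list median was 0.004. The insulin receptor Insr differed by -0.02 ± 0.07 and its substrate Irs1 by -0.13 ± 0.08.

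**Figure D3:**
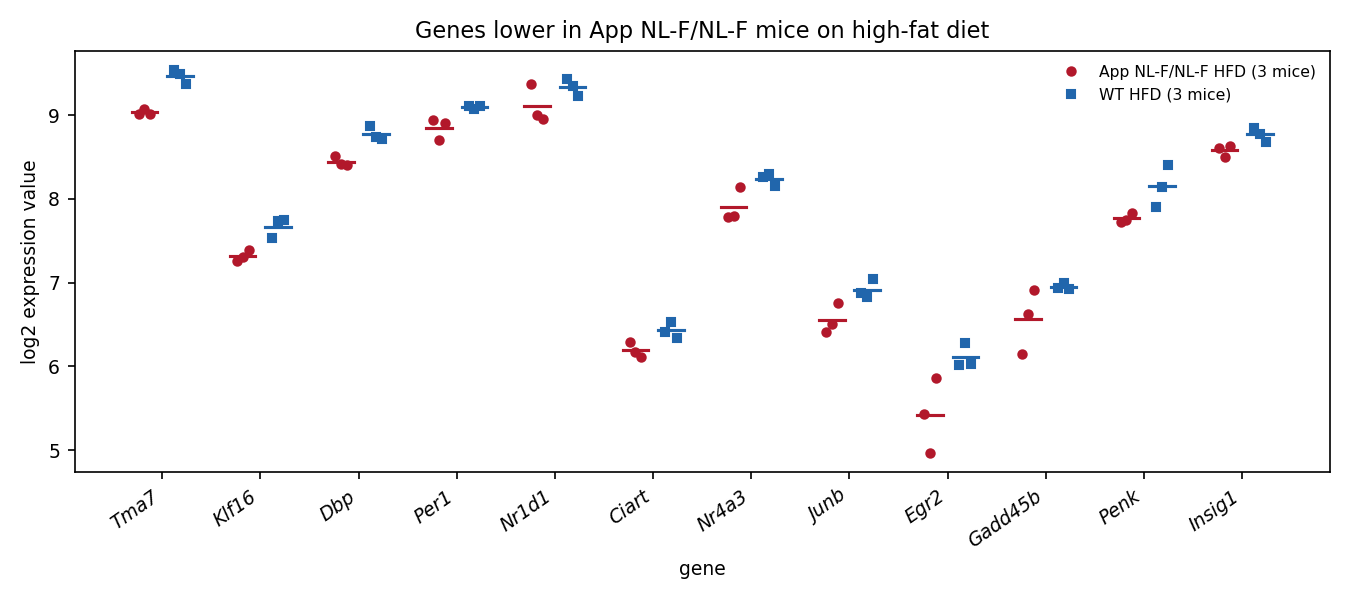
Log2 expression values (vertical axis) of 12 genes, lower on average in the 3 App NL-F/NL-F HFD mice (red circles) than in the 3 WT HFD mice (blue squares), with group means as bars. The groups do not overlap except in Nr1d1, and the gap between means is widest in Egr2, at -0.69.

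Neuronal lists showed few differences. None of 14 bright postsynaptic and 1 of 17 bright presynaptic genes separated the groups, Snap25, a fusion protein of synaptic vesicles (12.67, 12.68 and 12.71 in App NL-F/NL-F HFD mice, against 12.63, 12.56 and 12.58 in WT HFD mice). Syp differed by 0.02 ± 0.07 and Dlg4, the scaffold PSD-95, by -0.02 ± 0.09. None of 17 bright glutamate and GABA receptor genes separated the groups, Grm7 having the smallest p, with a difference of -0.15 ± 0.08. CA pyramidal genes had a median of 0.05 and dentate granule genes of 0.00, with Pou3f1 and Prox1 higher without overlap (0.20 and 0.24). Both were highest in App NL-F/NL-F HFD mouse 2, without which the differences were 0.08 and 0.11. Oxidative phosphorylation had 5 of 32 bright genes higher and 1 lower without overlap, beside 8.82% and 5.88% of bright genes. Its median was 0.04. Antioxidant defence had none of 15 in either direction, and the cytosolic ribosome 3 higher and 3 lower of 27. Endothelial (0 of 9) and mural (0 of 5) lists held no bright gene without overlap. Nor did the choroid plexus list (0 of 6), but all its 6 bright and all its 16 measured genes had a difference below 0, with a median of -0.37 over the bright ones and the lowest, -1.15, in Ttr, beside the uneven choroid plexus RNA given above.

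**Figure D4:**
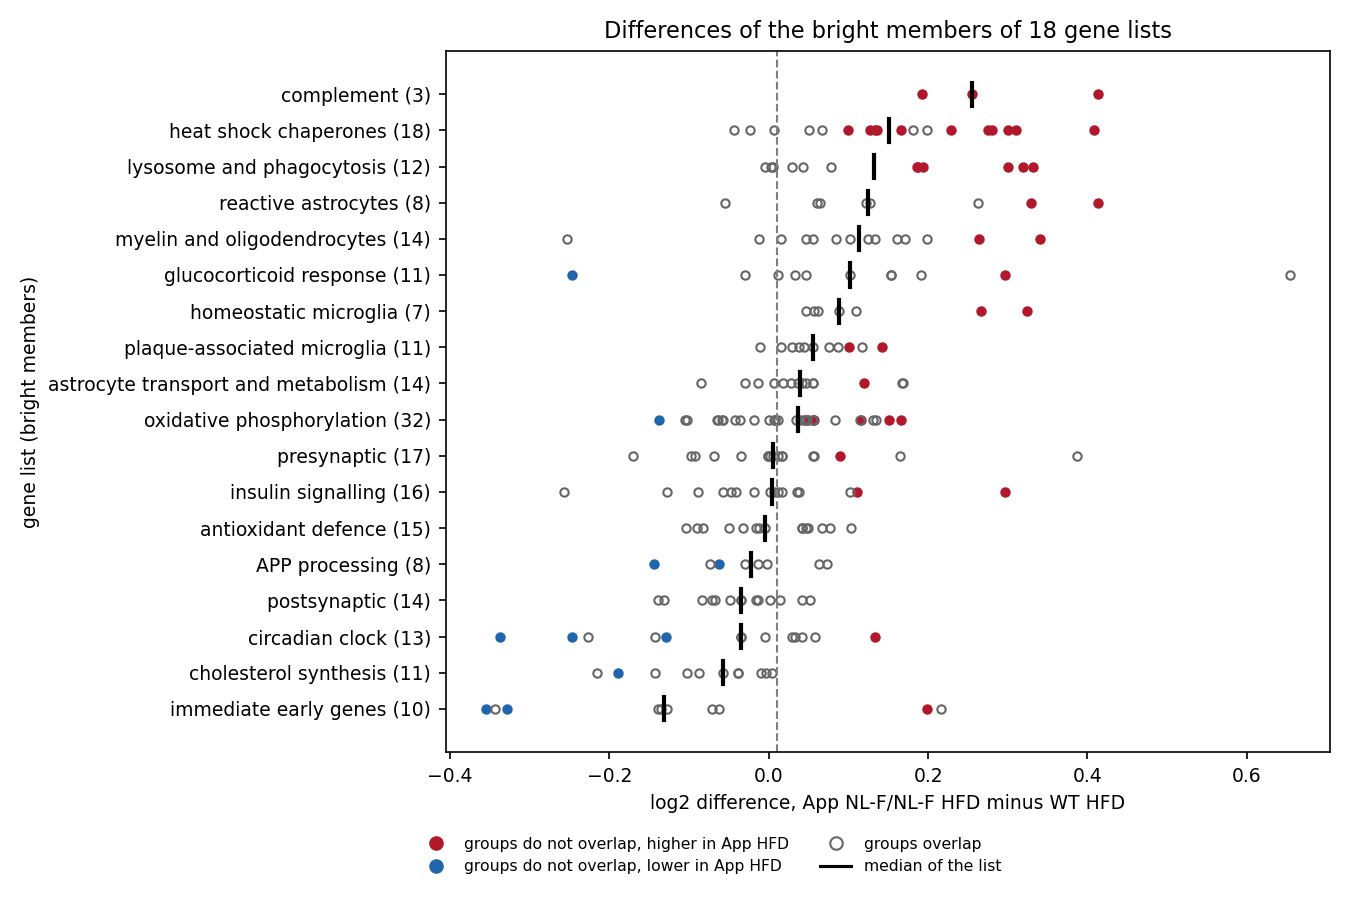
Log2 difference, App NL-F/NL-F HFD minus WT HFD (horizontal axis), of each bright member of 18 gene lists (rows, number of bright members in brackets), filled where the groups do not overlap, with the list median as a black bar and the median of all bright genes (0.01) as a dashed line. Among these 18 of the 42 lists, the medians run from 0.26 for complement to -0.13 for immediate early genes, and 11 of the 18 chaperone points are filled red. The choroid plexus list, with a median of -0.37, is not shown.

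The same genotype difference was measured on RD in other mice, so that no array is shared, although the fit shares its estimate of the spread. On RD 411 bright genes were higher (5.78%) and 530 lower (7.45%) without overlap. Of the 627 genes higher on HFD, 429 (68.4%) had a difference above 0 on RD, and of the 418 lower ones 267 (63.9%) had one below 0, beside 48.7% of all bright genes with a difference above 0 on RD. Without overlap on both diets were 88 higher genes (1.24% of bright genes) and 57 lower genes (0.802%). The 88 make up 14.0% of the genes higher on HFD and 21.4% of those higher on RD, and the 57 make up 13.6% and 10.8%. Over the bright genes, which are not independent of each other, the 2 differences correlated at r = 0.27.

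The genes with the largest differences on both diets included those of microglia, on RD by 0.33 (Ctss), 0.43 (Cd68), 0.27 (C1qa) and 0.28 (B2m), and of the dim ones Cst7 by 1.16, Lilrb4a by 0.87 and Clec7a by 0.70. The difference on HFD minus that on RD was 0.02 ± 0.19 for Cst7 and -0.11 ± 0.13 for Cd68, each within its SE. Fam107a (0.45), Ptma (0.56), Hspa5 (0.28), Tspan31 (0.27), Gfap (0.23) and Efhd2 (0.29), a calcium-binding protein, complete the 10 higher genes. Lower on both diets were Tma7 (-0.37 on RD), Dbp (-0.41), Usp11, a deubiquitinase (-0.56), Klf16 (-0.27), Rnf208 (-0.30), Tmem39b (-0.41), Agfg2 (-0.21), Nab2 (-0.18), Atxn7l1 (-0.21) and Prmt1 (-0.21), with HFD differences between -0.43 (Tma7) and -0.17 (Prmt1). The chaperone list had a median of 0.10 on RD, with 2 of 18 higher without overlap, the lysosomal list 0.16 with 6 of 12, and complement 0.27 with 3 of 3. Myelin (0.04), clock (-0.03, 1 higher and 3 lower) and cholesterol synthesis (-0.05, 3 lower) had small medians on RD.

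**Figure D5:**
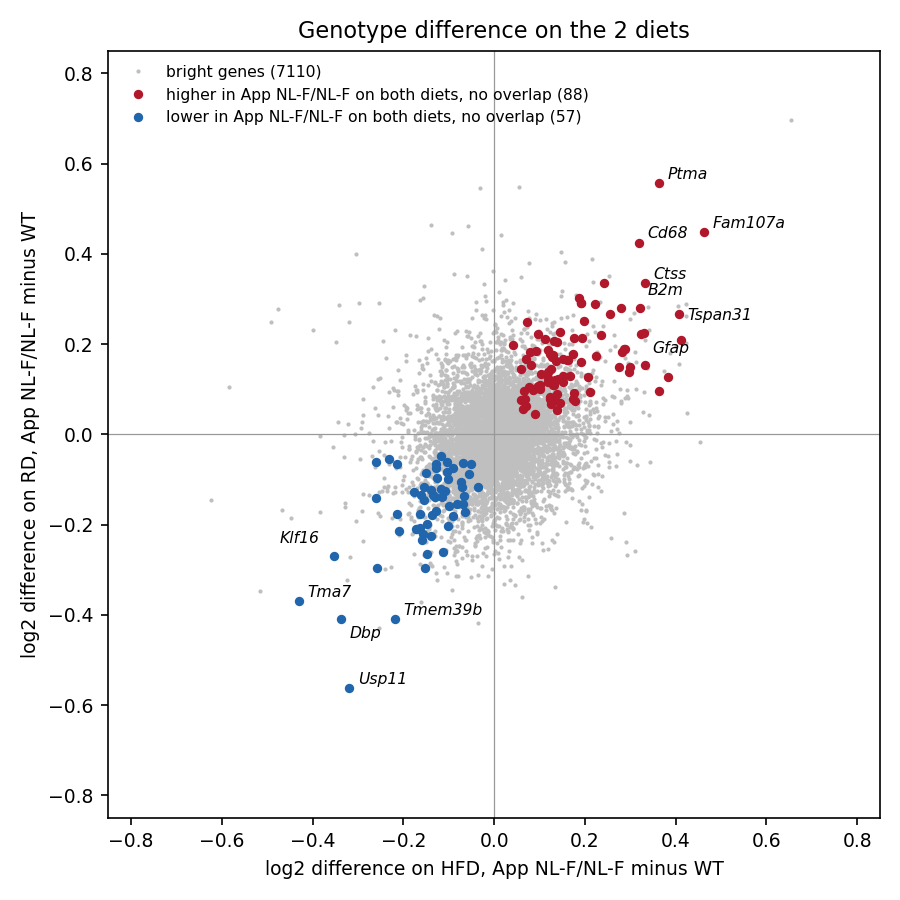
Log2 difference App NL-F/NL-F minus WT on HFD (horizontal axis) and on RD (vertical axis) for 7110 bright genes (grey points), with genes whose groups do not overlap on either diet in red (88, higher in App NL-F/NL-F) and blue (57, lower). Ptma, Fam107a and Cd68 lie far to the upper right and Tma7, Dbp and Usp11 to the lower left, and 2 genes lie outside the axes.

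No cluster had a genotype difference that differed between the diets at an adjusted p under 0.05, where the smallest adjusted p of the interaction contrast was 0.194. In 18 bright genes (0.253%) the groups did not overlap on either diet but in opposite directions, 13 of them higher and 5 lower on HFD. Msrb1, which repairs oxidized methionine, led them with 0.29 on HFD and -0.17 on RD (adjusted p of the contrast 0.970).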

How the data were processed

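RNA of 12 hippocampi, 3 mice per group, was hybridised by the authors to 1 array per mouse, and the scans were imported into Transcriptome Analysis Console. The deposited table holds log2 gene-level values made by the authors; how they summarised, background-corrected and normalized them was unknown here, which can change fold sizes of dim genes. Arrays have no read depth, so that the number of mice limits the precision. All 12 columns were used, and the replicates are labelled biological. Of 41345 clusters 16004 carry no symbol and 1820 several, and 1395 hold values identical to another cluster's, so that clusters are not all independent.

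Groups came from the labels. The values were fitted as deposited in limma 3.58.1 (R 4.3.3) over all 12 arrays with 4 group means, which share 1 estimate of the spread, and tested with moderated statistics and Benjamini-Hochberg adjustment over all clusters. The contrasts were App NL-F/NL-F minus WT on HFD and on RD, and the difference between them. The code was tested on simulated data. Gene lists were matched by symbol and RefSeq synonyms.

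Named were the 15 bright genes with the largest differences in each direction among those with an unadjusted p under 0.05 and no overlap, up to 4 members of each list with the smallest p, 10 genes per direction that separated on both diets, App, and the markers Cd68, C1qa, C1qb, Gfap, Ttr, Syp, Dlg4 and Il1b. Of 133 genes named 34 lie outside this rule and were chosen after their values were seen. The members and lists were chosen with earlier results of these data known. Alternatives were other sets of arrays, a filter on dim clusters, an intensity trend with robust spread, the replicate number as a block, quantile normalization, centring, and leaving out each mouse.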

Additional observations from a re-analysis of the deposited data

Results flagged for a closer look

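In 18 bright genes (0.253% of 7110) the App NL-F/NL-F and WT mice did not overlap on either diet but differed in opposite directions, on HFD 13 of them higher and 5 lower in the App NL-F/NL-F genotype. The largest contrast between the diets was that of Msrb1, 0.29 on HFD and -0.17 on RD, a difference of 0.46 ± 0.12 (SE). Rab8b, a GTPase of vesicle transport, had 0.19 on HFD and -0.15 on RD. Pou3f1, a transcription factor of pyramidal cells, had 0.20 on HFD (0.08 without App NL-F/NL-F HFD mouse 2) and -0.17 on RD, and Nin, a centrosomal protein, -0.12 and 0.17. No contrast passed the limma test, with adjusted p values from 0.970 upward.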

How the results depend on the processing

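With 0 clusters called at an adjusted p under 0.05 in limma, 1 was called when bright clusters alone were tested (Tma7) and 2 with an intensity trend and robust spread (Cst7 and Tma7). Of the 9878 bright clusters fitted alone, 540 were higher and 291 lower at an unadjusted p under 0.05. The main fit gave 165 higher and 71 lower of 7110 bright genes at that level. The bright fit drew its shared estimate of the spread from bright clusters alone, and an unadjusted p also depends on that estimate. Leaving out each mouse in turn gave 0 to 2 calls, with Cst7 called without App NL-F/NL-F HFD mouse 1 and 2 clusters of no single symbol without WT HFD mouse 2. The deviations of same-numbered HFD mice correlated at -0.09, -0.09 and 0.01, and those of same-numbered RD mice at 0.12, -0.0006 and 0.07. With 3 mice per group such values cannot decide whether mice were paired. A fit with the replicate block called 0 clusters, with 1086 higher and 1337 lower at the unadjusted level. The level of the choroid plexus list as a covariate, an alternative chosen after seeing the data, gave 0 calls for genotype on HFD and 1 for the contrast between diets, against 0.

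Fewer mice separate more easily: without 1 mouse 890 to 1200 bright genes were higher and 624 to 857 lower without overlap. Those without overlap on both diets were then 104 to 142 higher and 77 to 128 lower, 183 to 270 in all. The 57 lower on both diets became 92 after quantile normalization and 88 after centring on bright clusters, both chosen for this count after seeing the data, and the cause was not tested.

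Of 133 named genes, 11 changed sign somewhere. Another cluster of the gene gave 0.000307 for Aph1a, 0.0851 and 0.0115 for Atxn7l1, -0.0150 for Bace1, 0.111 for Irs1, -0.397 for Syp, 0.125 for Tma7 and 0.0439 for Trim27. Leaving out mice gave -0.0704 to 0.0314 for Dlg4, -0.00261 to 0.205 for P2ry12, -0.0791 to 0.499 for Prkcd and -0.00502 to 0.0451 for Syp, and the choroid plexus covariate gave 0.267 for Ttr. Of 336 list medians under alternatives, 9 moved by more than the spread between mice, among them clock genes (0.00 without WT HFD mouse 3).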

Other observations

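Gene groups outside the account above showed mixed differences, beside 8.82% of bright genes higher and 5.88% lower without overlap. Of 13 bright mitochondrial ribosome genes 3 were higher and none lower without overlap in App NL-F/NL-F HFD mice. A dim second cluster annotated to Mrpl47, a protein of that ribosome, shared the smallest adjusted p with Cst7, at a difference of 0.98 on HFD and -0.11 on RD, while the brighter cluster of the gene had a difference of 0.09. Of 13 bright genes for lipid carriers and efflux 3 were higher and 3 lower. Of 16 bright orthologs of Alzheimer's disease risk genes 3 were higher and none lower, and of 15 bright genes of the neuronal cytoskeleton none separated the groups, with a median of 0.04.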
